A study of Mus musculus with 48 samples.

Results

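The genes described here encode the proteins of the cytosolic ribosome. They were taken from the deposited table by gene type and symbol: protein-coding rows named Rpl or Rps followed by a number and an optional letter, together with Rplp0, Rplp1, Rplp2 and Rpsa, and without the Rps6k kinases. The rule gave 77 of 47729 rows, 31 of the small subunit and 46 of the large subunit. All 77 passed the filter on low counts in every fit.

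Poly(A) RNA of 3 adipose depots was profiled in male mice: brown adipose tissue (BAT), subcutaneous fat (SFAT) and visceral fat, which the labels call EFAT. The mice were either Cth+/+ or Cth-/-. Cth encodes cystathionine gamma-lyase, the enzyme that releases cysteine from cystathionine. Mice of both genotypes received either a control diet or a diet free of cystine for 6 days before the depots were frozen, which gave 12 groups of 4 libraries and a comparison of dietary cysteine supply with and without the animals' own synthesis. What all groups shared was male sex and a 6-day feeding period. The labels give no age, strain or description of the Cth allele, and do not say that the 4 libraries of a group came from separate animals, so each p-value measures the spread between these libraries.

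A ribosome joins a small subunit, which reads the mRNA, to a large subunit, which forms the peptide bond and guides the new chain out through a tunnel. Its proteins are needed in matched amounts, and their mRNAs belong to the most abundant of the cell. Most of these mRNAs begin with a C followed by a run of pyrimidines, the terminal oligopyrimidine or TOP motif. Through this motif the kinase complex mTORC1 and the RNA-binding protein Larp1 adjust their translation to amino acid supply. Sequencing of poly(A) RNA measures the abundance of these mRNAs, not their translation and not the number of ribosomes. In a whole depot, fewer cells of a type and less RNA per cell cannot be told apart.

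The start sites are shown because the TOP motif is the sequence feature for which these genes are known. RefSeq promoter windows (build GRCm38.p6) were matched by symbol for 57 of the 77 genes. Each line gives 10 bases before and 20 bases from the annotated start, 5′ to 3′. Capitals mark a C followed by 4 or more C or T whose first C lies within 10 bases of the start. Rps6, Rps26 and Rpl35 were among the genes with the largest rise in EFAT of cystine-deprived Cth-/- mice (cystine-free diet), and Rps2 and Rpl38 in SFAT. Rps28 and Rpl23 also rose in EFAT but had no such run in this window. Rplp0 and Rpl10 had no run within 10 bases of the start either and were called in none of the diet comparisons. Genes with a run were also among those never called: Rpl15 (17 bases), Rpl7a (17) and Rpl13a (14), whose windows are not printed. The printed Rplp0 window does hold a C followed by 4 C or T further downstream, outside the bases searched.
Rps6: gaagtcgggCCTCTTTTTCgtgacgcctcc
Rps26: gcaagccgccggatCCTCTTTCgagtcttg
Rpl35: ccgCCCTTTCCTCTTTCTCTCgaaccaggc
Rps2: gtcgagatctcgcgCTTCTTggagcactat
Rpl38: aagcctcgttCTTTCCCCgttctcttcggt
Rps28: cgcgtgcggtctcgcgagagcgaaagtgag
Rpl23: gtccggtcacgtggctgagtgggcggggcc
Rplp0: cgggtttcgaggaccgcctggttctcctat
Rpl10: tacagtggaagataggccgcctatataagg
The windows lie at chr4:86857348-86857377 (minus strand) for Rps6, chr10:128626487-128626516 (minus) for Rps26, chr2:39005112-39005141 (minus) for Rpl35, chr17:24720053-24720082 (plus) for Rps2, chr11:114668570-114668599 (plus) for Rpl38, chr17:33824543-33824572 (minus) for Rps28, chr11:97782420-97782449 (minus) for Rpl23, chr5:115559457-115559486 (plus) for Rplp0 and chrX:74270806-74270835 (plus) for Rpl10. Each holds the start of the first exon. A run was found at 31 of the 57 starts (54.4%), against 30.2% of 17492 coding promoters searched in the same way on the transcribed strand. The median run was 8 bases and the longest 20. A match describes the letters at an annotated start, and a start annotated a few bases away would move it.

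In the 300-base promoter windows, 250 bases before and 50 after the start and read on both strands, CCGGAAG (ETS-type) occurred in 40.4% of the 57 genes and in 11.9% of all coding promoters. AAGATGG (YY1-type) occurred in 14.0% against 6.37%, GGGCGG (SP1-type) in 59.6% against 46.3%, and TATAAA in 8.77% against 13.3%. The genes lay on 19 chromosomes, 4 of them on X (Rpl10, Rpl36a, Rpl39 and Rps4x). For each gene 1 transcript was taken from the GENCODE M21 annotation, the longest of those with the best rank as principal form. These transcripts were short, with a median of 886 bp against 2606 bp for 21294 other coding genes. They ranged from 345 bp (Rps27) to 5179 bp (Rps15a). Their coding sequences ran from 25 codons (Rpl41) to 419 codons (Rpl4). They held few cysteine codons, a median of 2 against 9, or 1.24 against 2.12 per 100 codons. In 15 of them there was none, among them Rpl35, Rpl26, Rps24, Rplp2 and Rpl41, and Rpl10 had the most with 8. Lysine and arginine made up 22.2% of codons at the median against 11.1%.

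The libraries held 16245832 to 46031118 counted reads. Mitochondrial genes took 21.8 to 45.7% of them in BAT, 7.06 to 31.3% in SFAT and 4.82 to 14.7% in EFAT, and the 77 genes 0.384 to 0.845%, 0.847 to 1.69% and 1.10 to 2.20%. A single gene had between 201 (Rpl39) and 16825 (Rplp0) reads in a library, with a median of 3528. Cth itself had 0 to 6 reads in the 24 Cth-/- libraries and 8 to 389 in the 24 Cth+/+ libraries. The libraries fell into 2 sets that the labels do not name, told apart by the predicted gene Gm43512. It was under 0.1 CPM (read counts scaled to a common library total) in the 27 libraries of set A and above it in the 21 of set B. In BAT and SFAT the sets were spread over the groups, with 3 of 4 cystine-free Cth-/- libraries in set A and 2 of 4 in every other group. In EFAT they were not: set A held 1 control and 4 cystine-free Cth+/+ libraries, and 3 control and 1 cystine-free Cth-/- libraries. Replicate 20 of the cystine-free Cth-/- group in SFAT had the highest mitochondrial share of its depot, and replicates 10 (Cth+/+, cystine-free) and 12 (Cth-/-, control) in BAT were also doubted, so counts are given without these libraries where they differ.

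In EFAT the summed mRNA of the 77 genes rose in Cth-/- mice without dietary cystine, from 13875 ± 1136 to 17211 ± 1474 CPM (mean ± SD, n = 4), scaled to the libraries of the depot. The 4 control libraries lay between 12838 and 15377 CPM and the 4 cystine-free libraries between 15766 and 19234 CPM, without overlap. In SFAT the sums were 12868 ± 632 and 14740 ± 1458 CPM, and 3 of the 4 cystine-free libraries (14639, 15431 and 16135 CPM) lay above every control library. The exception was replicate 20 with 12755 CPM. In BAT they were 5631 ± 365 and 5688 ± 593 CPM and overlapped. By subunit, the small-subunit sum in EFAT was 5419 ± 498 CPM on the control and 6765 ± 759 CPM on the cystine-free diet, and the large-subunit sum 8456 ± 644 and 10446 ± 727 CPM. Neither sum overlapped between the diets. The large-subunit sum was 1.56 ± 0.038 and 1.55 ± 0.070 times the small-subunit sum, ratios that overlapped and whose difference was not tested.

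**Figure D1:**
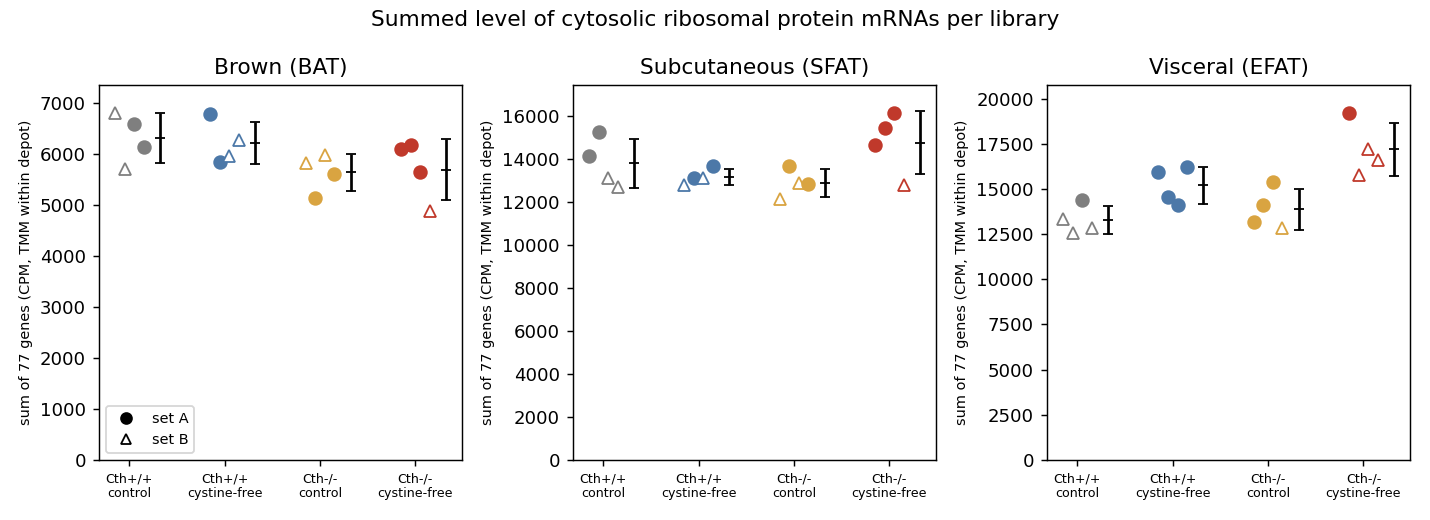
Summed mRNA of the 77 ribosomal protein genes in each library, in CPM scaled within the depot, by group. Points are libraries, filled circles for set A and open triangles for set B, and the dash and bar beside them are the group mean and SD (n = 4). In EFAT the Cth-/- libraries on the cystine-free diet lay between 15766 and 19234 CPM, above all 4 control libraries of that genotype.

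In EFAT of Cth-/- mice, 35 of the 77 genes were higher on the cystine-free diet and 0 lower at an adjusted p under 0.05 (edgeR quasi-likelihood F-test over all genes tested, Benjamini-Hochberg). Across all 17248 genes tested, 28.8% were called in either direction and 14.5% were called higher. The calls took in 14 of 31 small-subunit and 21 of 46 large-subunit genes, with median log2 fold changes of 0.31 and 0.30. For all 77 the median was 0.31, against 0.07 for all genes tested, and 73 lay above 0. The groups did not overlap, with every cystine-free library above every control library, for 30 of the 77 against 14.4% of all genes.

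Among small-subunit proteins, Rps6, the substrate of the S6 kinases (gene at chr4:86854660-86857412, GRCm38), had 4 control libraries at 269, 294, 297 and 321 CPM and 4 cystine-free libraries at 411, 571, 477 and 563 CPM. The groups did not overlap, and in Cth+/+ mice all 8 libraries lay between 259 and 335 CPM on either diet. The rise was 0.78 ± 0.12 (log2 fold change ± SE, adjusted p = 0.000667). Rps26 (chr10:128624534-128626747), which lines the channel where the mRNA leaves, went from 103, 117, 116 and 147 to 139, 238, 188 and 272 CPM. Here replicate 16 (139 CPM) fell below the highest control library (147 CPM), so the groups overlapped, and the rise was 0.79 ± 0.19 (adjusted p = 0.00726). Rps28 (chr17:33819027-33824562), a small protein of the same region, went from 40.8, 50.7, 51.6 and 46.0 to 80.5, 73.8, 74.0 and 82.1 CPM without overlap, a rise of 0.72 ± 0.11 (adjusted p = 0.000453). Rps27 rose by 0.61, Rps24 by 0.52, Rps10 by 0.49 and Rps3a1 by 0.46 on the log2 scale.

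Of the large subunit, Rpl35 (chr2:39001580-39005624), at the exit of the peptide tunnel, went from 76.1, 79.9, 93.2 and 105 to 108, 175, 129.8 and 172 CPM, 0.72 ± 0.16 (adjusted p = 0.00549), with replicate 16 again close to the controls. Rpl23 (chr11:97777527-97782437), on the face that meets the small subunit, went from 202, 250.0, 226 and 274 to 329, 389.7, 367 and 467 CPM without overlap, 0.70 ± 0.13 (adjusted p = 0.00136). Rpl28 rose by 0.58, Rpl38 by 0.51, Rpl19 by 0.49, Rpl4 by 0.46 and Rpl5, which binds 5S rRNA, by 0.42. Rpl22, which has the paralog Rpl22l1, went from 94.7, 113, 109.5 and 100.4 to 157, 119.8, 136 and 135 CPM, a rise of 0.39 ± 0.10 (adjusted p = 0.0107) with no overlap. Its call was lost without replicate 16 or replicate 18 of the cystine-free group. The stalk, which recruits elongation factors, was uneven: Rplp1 rose by 0.41, while Rplp0 and Rplp2 did not pass the test.

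**Figure D2:**
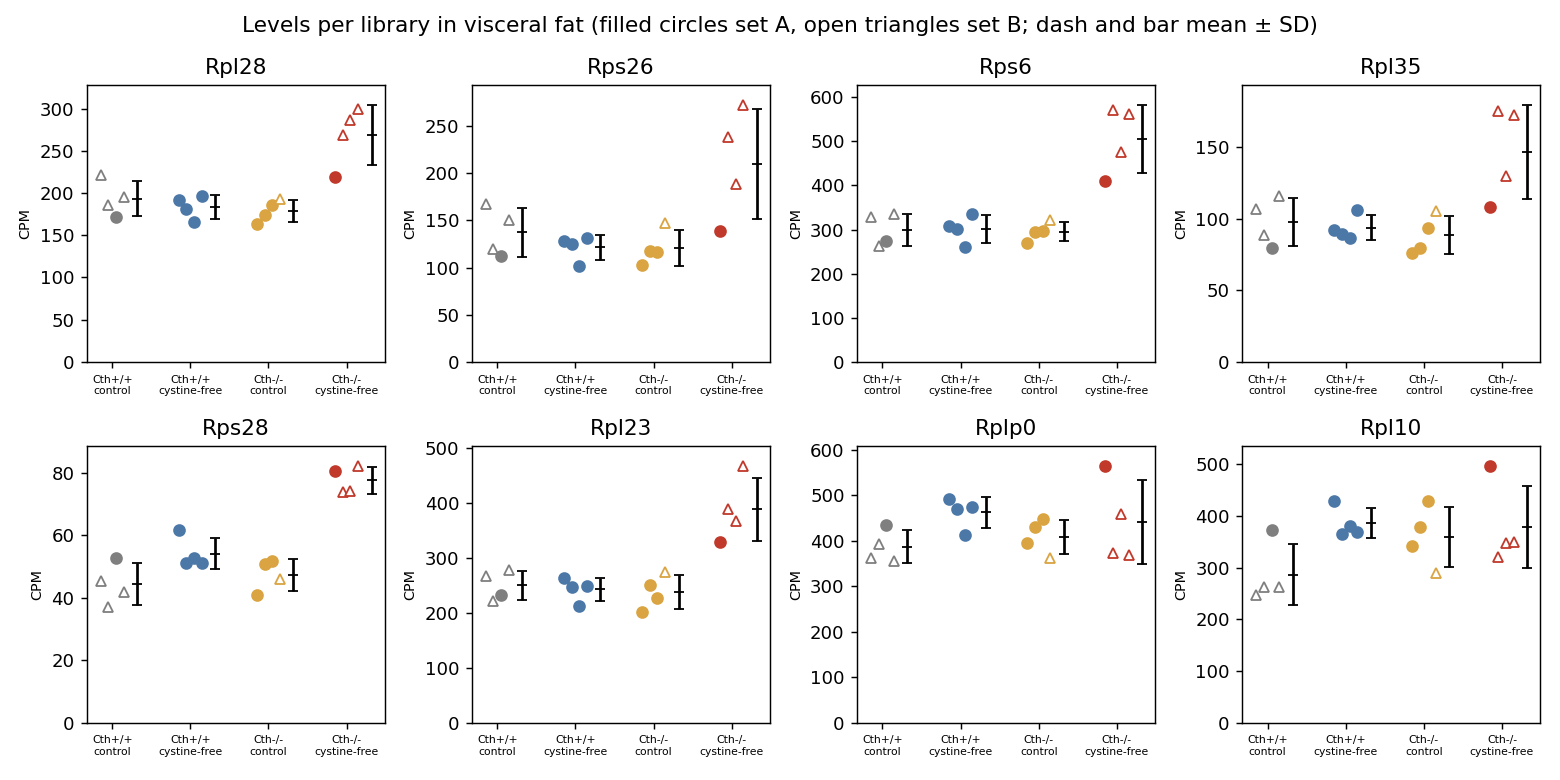
Levels in the 16 EFAT libraries, in CPM, of 6 genes that rose in Cth-/- mice and of Rplp0 and Rpl10. Points are libraries by group, filled circles for set A and open triangles for set B, with mean and SD (n = 4) beside them. For Rpl28, Rps6, Rps28 and Rpl23 all 4 cystine-free Cth-/- libraries lie above the 4 control libraries, and for Rplp0 and Rpl10 the groups overlap.

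The other 42 genes did not pass the test in EFAT. Rplp0, the base of the stalk, had 396, 431, 447 and 363 CPM on the control diet and 564, 374, 459 and 369 CPM on the cystine-free diet, with only replicates 16 and 18 above the controls (0.11 ± 0.13, adjusted p = 0.55). Rpsa, whose protein is also known as a laminin receptor, had 372, 349, 433 and 309 and 456, 342, 385 and 313 CPM (0.032 ± 0.15, adjusted p = 0.881). Rpl10, an X-linked gene whose protein joins the large subunit last, had 342, 378, 428 and 289.6 and 496, 321, 347 and 351 CPM (0.075 ± 0.16, adjusted p = 0.747). In each of these 3 genes replicate 16, the single set A library of its group, was the highest of the 4. Rps4x, also X-linked, had 297, 337, 347 and 259.8 and 449, 291, 322 and 304 CPM (0.14 ± 0.15, adjusted p = 0.505). Rps27a, which is made as a fusion with ubiquitin, had 129.5, 145, 157 and 106 and 194, 122, 157 and 152 CPM (0.22 ± 0.15, adjusted p = 0.282). Both overlapped between the diets, again with replicate 16 highest. Rpl3, a core protein next to the peptidyl transferase centre, had 285, 318, 336 and 282 and 463, 325, 378 and 321 CPM (0.29 ± 0.12, adjusted p = 0.0944).

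The library set moved with these results. In EFAT, set B was lower than set A in 22 of the 77 genes and higher in 0 at an adjusted p under 0.05 (2.13% of all genes called), with a median log2 difference of -0.21. For the 35 genes called on the diet the median set difference was -0.08, and for the 42 not called -0.40. The cystine-free Cth-/- group held 3 set B libraries and its control group 1. With the library set as a term in the fit, 58 of the 77 were called higher (18.1% of all genes called), all 35 among them, with a median of 0.40. Rps26 then had 0.52, Rps6 0.65, Rpl35 0.50, Rps28 0.79 and Rpl23 0.58, all still called. Within each set the ratio of means was above 1 for all 77 genes. The median log2 ratio was 0.44 in set A, with 1 cystine-free library at 19234 CPM against 3 control libraries between 13176 and 15377 CPM. In set B it was 0.34, with 3 cystine-free libraries between 15766 and 17216 CPM against 1 control library at 12838 CPM. A fit of set A alone called 0 of the 77 (0.356% of all genes) with that single cystine-free library. The count of 35 fell to 23 without replicate 16 and likewise without replicate 18 of the cystine-free group, and without replicate 16 the median of the 77 was 0.10.

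In SFAT of Cth-/- mice, 10 of the 77 genes were higher on the cystine-free diet and 0 lower. Of 16555 genes, 25.4% were called in either direction and 11.8% were called higher. The share of the 77 called higher was thus close to that of all genes. The median of the 77 was 0.19 against 0.03 for all genes, and 75 of the 77 lay above 0. The groups did not overlap upwards for 13 of the 77 (13.5% of all genes). Rps2, beside the channel where the mRNA enters, had the largest called rise, from 214, 241, 221 and 224 to 347, 339, 326 and 265 CPM (0.50 ± 0.12, adjusted p = 0.00622). Every cystine-free library was above every control library, replicate 20 least. Rps28 went from 41.1, 50.5, 43.1 and 47.3 to 59.3, 58.2, 63.8 and 61.5 CPM (0.42 ± 0.09, adjusted p = 0.00305). Rpl38, known for its part in the patterning of the axial skeleton, went from 42.8, 52.0, 45.0 and 42.9 to 61.1, 58.0, 57.3 and 65.2 CPM (0.40 ± 0.11, adjusted p = 0.0117). Neither overlapped, and replicate 20 was here among the higher cystine-free libraries. Rplp1 (0.37 ± 0.10, adjusted p = 0.0164) and Rps6 (0.36 ± 0.11, adjusted p = 0.0233) were the next by size. Rps6 had 285, 282, 318 and 267 CPM on the control diet and 324, 342, 381 and 434 CPM on the cystine-free diet. Also called were Rps25 (0.32), Rpl19 (0.30), Rpl14 (0.26) and Rpl26 (0.25).

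The SFAT count moved with several single libraries, among them replicate 20 of the cystine-free group, with 31.3% mitochondrial reads. Rplp2, a stalk protein, had 89.9, 113, 91.9 and 107 CPM on the control diet and 171, 177, 173 and 92.1 CPM on the cystine-free diet: 3 libraries were above every control and replicate 20 was at the control level, and the gene did not pass the test. The same library was lowest for Rplp0 (397, 406, 424 and 267 CPM against 311, 376, 324 and 326 CPM) and for Rpsa (418, 442, 423 and 296 CPM against 307, 321, 352 and 314 CPM). Without it 25 of the 77 were called, and the share of all genes called in that fit is not given here. The count fell to 4, 5 and 5 without control replicates 12, 13 and 15, and to 6 without cystine-free replicate 17 or 18. Rplp1 lost its call without control replicate 12 or 14, and Rps6 without control replicate 12, 13 or 15 or cystine-free replicate 20. In SFAT 5 of the 77 were higher and 32 lower in set B (10.2% of all genes called). With the library set as a term 19 were called (30.2% of all genes), all 10 among them, and in set A alone 17 (27.3% of all genes). In set A 76 of the 77 ratios of means were above 1, and in set B, where replicate 20 was the only cystine-free library, 33. Without scaling factors the median log2 fold change of all genes moved by -0.20. Then 20.2% of all genes were called and 0 of the 77. Their median was then 0.01, still 0.18 above that of all genes (0.17 above it with TMM scaling). Rpl3, Rps27a, Rps4x, Rpl22 and Rpl10 did not pass, with 0.23, 0.19, 0.066, 0.12 and 0.043.

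Of the 10 genes called higher in SFAT, 8 were also among the 35 of EFAT, such as Rpl14, Rpl19, Rpl26, Rpl38, Rplp1, Rps28 and Rps6. The 8 made up 80% of the first list and 22.9% of the second. The matching overlap over all genes called higher is not given here, and whether the 8 exceed it was not tested.

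BAT of Cth-/- mice had 1 gene higher and 1 lower on the cystine-free diet, where 18% of 14528 genes were called in either direction, 7.81% higher and 10.2% lower. The median of the 77 was 0.00 against -0.01 for all genes. Rps2 went from 131, 143, 134 and 153 to 209, 229.8, 213 and 174 CPM (0.56 ± 0.14, adjusted p = 0.0132), with every cystine-free library above the controls. Rps24, mutated in some families with Diamond-Blackfan anaemia, went from 158, 100.5, 158 and 116 to 93.5, 86.7, 78.9 and 96.5 CPM (-0.58 ± 0.17, adjusted p = 0.0301). Its high control libraries were replicates 12 and 14, both of set B, and the call was lost without either of them, without cystine-free replicate 16, 17 or 18, without the doubted libraries and in set A alone. The call of Rps2 was lost in set A alone. Among the genes given by library, Rps6 had 130.4 ± 33.4 and 126 ± 7.71 CPM, Rplp0 143 ± 9.62 and 157 ± 21.6 CPM, and Rpl10 107 ± 9.91 and 111 ± 24.8 CPM (mean ± SD, n = 4), control diet first. These differences were smaller than the spread between libraries. The library set was called for 32 of the 77 in BAT, 13 higher and 19 lower in set B (20.2% of all genes). Within set A 74 of the 77 ratios of means were above 1, and within set B, with 1 cystine-free library, 1 was.

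**Figure D3:**
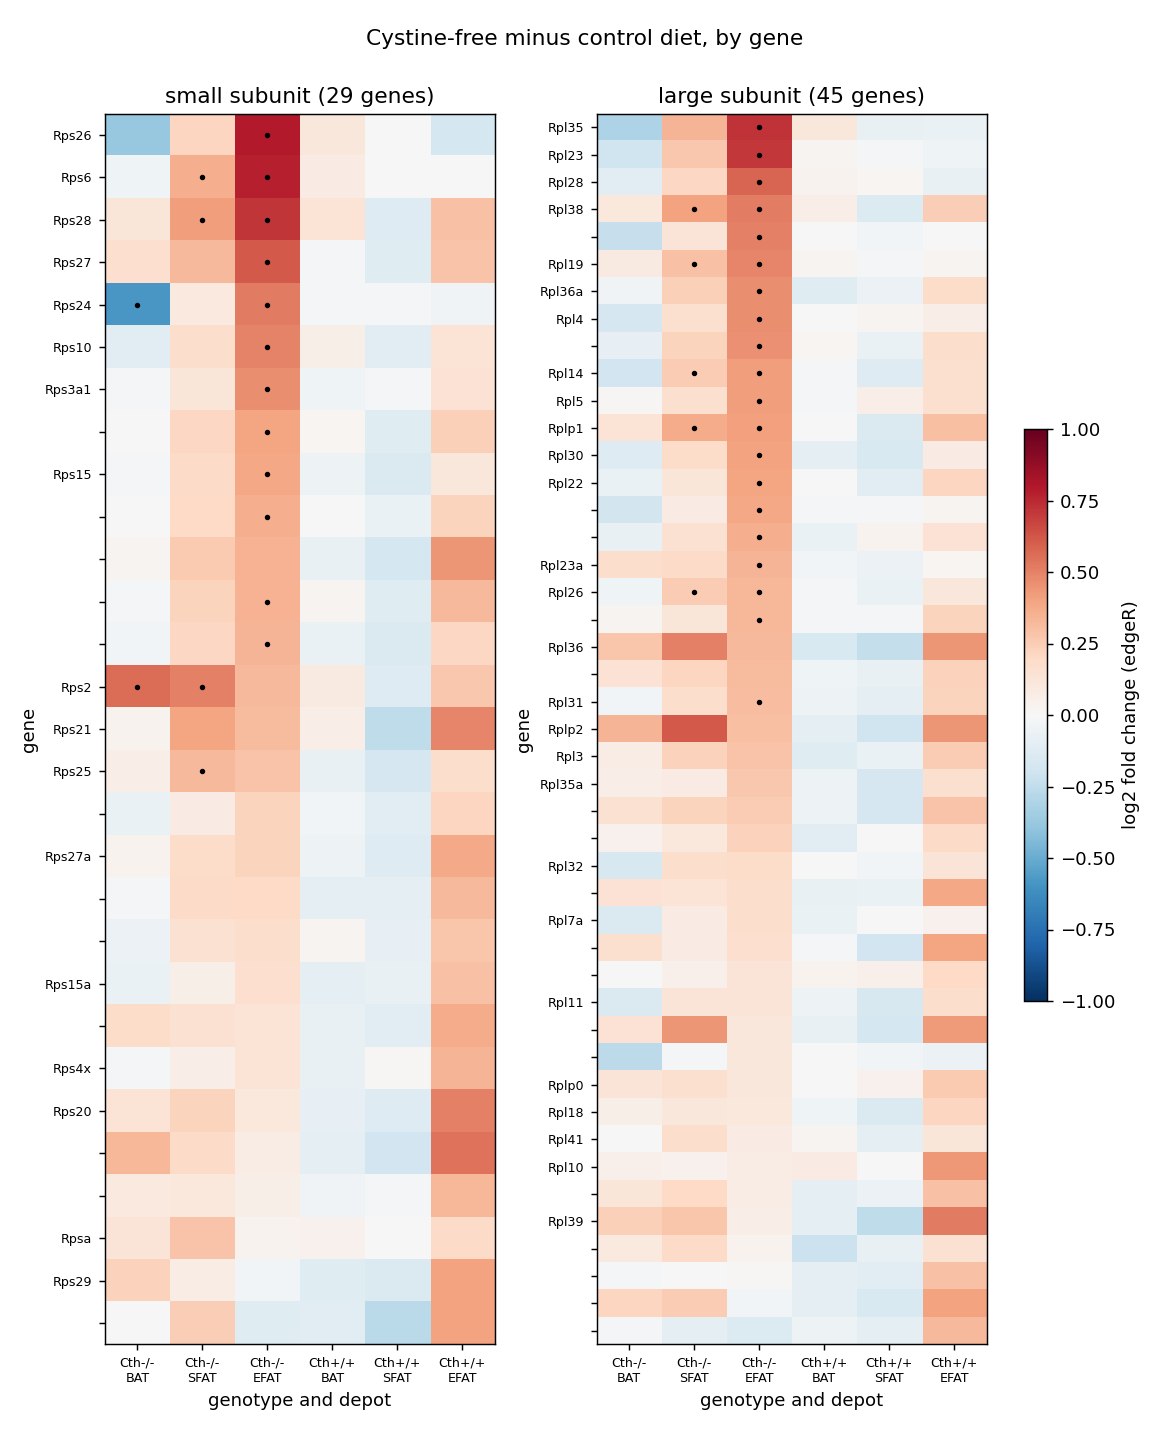
Log2 fold change of each of 74 of the 77 genes on the cystine-free against the control diet, by depot and genotype, with the colour scale in log2 units and called genes marked with a dot. Rows are labelled for genes named in the text. The dots stand in the Cth-/- columns, 32 in EFAT, 9 in SFAT and 2 in BAT, and none in the Cth+/+ columns.

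In Cth+/+ mice the cystine-free diet called 0 of the 77 in BAT, SFAT and EFAT, where 0.0826%, 0.0664% and 0% of all genes were called by edgeR. DESeq2 also called 0 in each. At an unadjusted p under 0.05 the counts were 0 in BAT (9.8% of all genes), 0 in SFAT (14% of all genes) and 24 in EFAT (3.93% of all genes). The medians were -0.03, -0.09 and 0.22. The summed level in EFAT was 13284 ± 793 CPM on the control and 15217 ± 1015 CPM on the cystine-free diet (n = 4). Rpl10 had 246, 263, 373 and 263 CPM on the control diet and 428, 365, 381 and 369 CPM on the cystine-free diet, and Rps4x 242, 258, 339 and 246 and 379, 329.6, 331 and 335 CPM. In both, control replicate 3, the only set A library of that group, was the highest control library. All 4 cystine-free libraries were of set A, so that diet and set could hardly be told apart in these mice. With the library set as a term the median went from 0.22 to 0.06.

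On the control diet the genotypes did not differ at an adjusted p under 0.05 in any of the 77 (edgeR), where 2.1% of all genes were called in BAT, 0.103% in SFAT and 0.0464% in EFAT. DESeq2 called 0 as well. With the library set as a term BAT had 1 (5.1% of all genes), and in set A alone BAT had 6 (7.29%) and SFAT 5 (8.37%). The counts at an unadjusted p under 0.05 were 12, 4 and 0 (18.3%, 11% and 6.2% of all genes), and the medians -0.19, -0.10 and 0.07. On the cystine-free diet Cth-/- libraries were higher than Cth+/+ libraries in 25 of the 77 in EFAT (39.7% of all genes called, 20.1% higher) and in 14 in SFAT (37.5% called, 18.1% higher), and lower in 5 in BAT (31.6% called, 17.1% lower). No gene of the 77 was called in the other direction in its depot. All 25 of EFAT were also called on the diet, among them Rps26 (0.78 ± 0.19), Rps6 (0.75 ± 0.12), Rpl23 (0.68 ± 0.13), Rpl35 (0.64 ± 0.16) and Rpl28 (0.55 ± 0.11). This comparison shares its Cth-/- cystine-free libraries with the diet comparison. The count of 25 fell to 14 without Cth+/+ replicate 8 and to 16 without Cth-/- replicate 18, and it was 35 in the fit with a library-set term (20.9% of all genes), with Rps26 and Rpl35 no longer called.

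The 14 of SFAT were led by Rplp2 (0.72 ± 0.22, adjusted p = 0.0177), Rps21 (0.51 ± 0.18, adjusted p = 0.0407), Rps2 (0.43 ± 0.12), Rps28 (0.38 ± 0.09), Rps27 (0.36 ± 0.13) and Rps6 (0.31 ± 0.11). Rplp2 had 73.5, 98.7, 79.5 and 119.7 CPM in Cth+/+ and 171, 177, 173 and 92.1 CPM in Cth-/- mice. Its last Cth-/- library, replicate 20, lay far below the other 3. The count was 27 without that library, 9 without Cth-/- replicate 16, 4 without Cth+/+ replicate 10, and 3 without Cth+/+ replicate 7 or 8 or Cth-/- replicate 17 or 18. Shares of all genes called in these fits are not given here. Rplp2, Rps21, Rps27 and Rps6 each lost their call without at least 3 of the 8 libraries, one at a time, and Rps2 and Rps28 without none of them. In BAT the 5 lower genes were Rps24 (-0.68 ± 0.17, adjusted p = 0.00733), Rpl32 (-0.36), Rpl11 (-0.36), which binds 5S rRNA with Rpl5, Rpl14 (-0.34) and Rpl30 (-0.28). That count was 3, 2, 1 and 1 without Cth+/+ replicates 7 and 11 and Cth-/- replicates 18 and 20. The call of Rps24 held in every one of these fits.

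The genotype by diet interaction asks whether the diet response differed between the genotypes. It was called for 0 of the 77 in BAT (6.42% of all genes; edgeR unadjusted p under 0.05 in 2 of the 77 against 22.2%; DESeq2 0), for 8 in SFAT (21.7% called, 9.39% higher) and for 9 in EFAT (10.4% called, 5.04% higher), all with a higher response in Cth-/- mice. In SFAT these included Rps2 (0.63 ± 0.17, adjusted p = 0.0151), Rps28 (0.54 ± 0.12, adjusted p = 0.00642), Rpl38 (0.54 ± 0.15, adjusted p = 0.0189), Rplp1 (0.51 ± 0.15), Rps25 (0.49 ± 0.15), Rpl14 (0.39) and Rpl30 (0.34). The response of Rps2 is an example: its Cth+/+ libraries had 278, 298, 240.1 and 216 CPM on the control diet and 217, 240.5, 216 and 272 CPM on the cystine-free diet, and overlapped. The SFAT count of 8 was, as a share of the 77, close to the 9.39% of all genes called higher. It was 20 without Cth-/- cystine-free replicate 20 (share of all genes not given here). With the library set as a term it was 18 (25.4% of all genes), and in set A alone 17 (12.6%). It was 3 to 5 without Cth+/+ replicate 2, 7 or 10 or Cth-/- replicate 12, 14 or 18. In EFAT the 9 included Rps26 (0.97 ± 0.27, adjusted p = 0.0347), Rpl35 (0.79 ± 0.23), Rps6 (0.77 ± 0.17, adjusted p = 0.0173), Rpl23 (0.75 ± 0.18), Rpl28 (0.66 ± 0.15), Rps24 (0.56), Rpl19 (0.46) and Rpl4 (0.40), all among the 35. None was called with the library set as a term, where 0.33% of all genes were called. Rps6 then had 0.47 (adjusted p = 0.392) and Rpl23 0.44 (adjusted p = 0.412). Leaving out any one of 11 libraries (Cth+/+ replicates 1, 4, 7, 8 and 10, Cth-/- replicates 12, 13, 14, 17, 18 and 20) gave 3 or 4 calls.

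Between depots, the diet response of Cth-/- mice was higher in EFAT than in BAT for 20 of the 77 and lower for 0 (edgeR fit of all 48 libraries), where 16.2% of 18348 genes were called and 7.29% higher. Among these were Rps26 (1.11 ± 0.30, adjusted p = 0.0102), Rps24 (1.04 ± 0.20, adjusted p = 0.000556), Rpl35 (0.96 ± 0.26), Rpl23 (0.84 ± 0.19) and Rps6 (0.75 ± 0.18). In this order, set B exceeded set A by 0.50, 0.29, 0.43, 0.24 and 0.24 in EFAT, where none was called. In BAT the set differences were 0.61, 0.44, 0.54, 0.36 and 0.40. From control to cystine-free diet, set B libraries of Cth-/- mice went from 1 to 3 in EFAT and from 2 to 1 in BAT. Values of these genes with the library set as a term are not given here. Rps24 rose in EFAT and fell in BAT. The count was 13 without control replicate 12 of BAT and 13 without control replicate 12 of EFAT, 29 with the library set as a term (11.9% of all genes) and 0 in set A alone (1.63%). SFAT exceeded BAT in 1 gene, Rpl14 (0.44 ± 0.12, adjusted p = 0.0459; 2.16% of all genes called, 1.34% higher), a call that was lost without 14 of the 16 libraries, one at a time, and without the doubted libraries. EFAT and SFAT differed in 0 of the 77 (4.38% of all genes; 5 at an unadjusted p under 0.05 against 21.7%; 1 by DESeq2).

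The levels between genes were compared per kilobase of the annotated transcript, in Cth+/+ mice on the control diet. Rpl23a was the highest in every depot, with 506 ± 60.8 CPM per kb in BAT, 439 ± 32.3 in SFAT and 390.1 ± 27.4 in EFAT (mean ± SD, n = 4). Rpl41, the shortest ribosomal protein, followed with 372 ± 45.7, 350.5 ± 46.9 and 354 ± 33.9 CPM per kb. The third was Rpl19 in BAT (355 ± 26.1), Rps27 in SFAT (339.6 ± 47.1) and Rps15 in EFAT (268 ± 14.7). In EFAT the difference between Rpl23a and Rpl41 was close to the spread between libraries, and in BAT Rpl41 and Rpl19 differed by less than it. The lowest 3 were Rps15a (15.4 ± 1.90, 17.5 ± 2.86 and 14.1 ± 1.42), Rps20 (21.9 ± 5.36, 25.2 ± 6.85 and 18.9 ± 3.77) and Rpl18 (31.0 ± 3.64, 29.6 ± 2.47 and 26.1 ± 1.37), in the order BAT, SFAT and EFAT. The range from lowest to highest was 32.8-fold in BAT, 25.1-fold in SFAT and 27.6-fold in EFAT. A long annotated transcript such as that of Rps15a lowers a level per kilobase where shorter forms are the ones expressed. The longest of the equally ranked transcripts was used for every gene, so the ranking and the range depend on that choice.

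Levels of each gene were also compared between depots in these mice. BAT and SFAT differed in 18 of the 77, 6 higher and 12 lower in BAT, where 53% of all genes were called, 25.9% higher and 27.1% lower. Rpl19 (0.40 ± 0.09), Rps2 (0.39 ± 0.14) and Rpl7a (0.34 ± 0.09) were higher in BAT, and Rps4x (-0.60 ± 0.16), Rps3a1 (-0.49 ± 0.09) and Rpl10 (-0.47 ± 0.18) lower. BAT and EFAT differed in 24, 19 higher and 5 lower in BAT (60% of all genes called, 26.9% higher and 33.1% lower), led by Rplp2 (0.78 ± 0.26), Rpl36 (0.66 ± 0.23) and Rps29 (0.58 ± 0.25) and, on the lower side, Rpl32 (-0.35 ± 0.11). These directions depend on the scaling. Without scaling factors the median of all genes moved by -1.0 and -1.03. Then 75 and 72 of the 77 were lower in BAT and 0 higher. Of all genes, 73% and 77.2% were called in either direction under that setting. The median of the 77 was 0.06 below that of all genes in BAT against SFAT and 0.24 above it in BAT against EFAT, under either scaling. SFAT exceeded EFAT in 7 and was lower in 0 (15.2% of all genes called, 5.66% higher), among them Rps28 (0.34 ± 0.11), Rpl35a (0.34 ± 0.11) and Rpl31 (0.31 ± 0.10). That count was 0 without SFAT replicate 2, EFAT replicate 2 or EFAT replicate 4, 1 without EFAT replicate 1 and 2 without SFAT replicate 1.

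**Figure D4:**
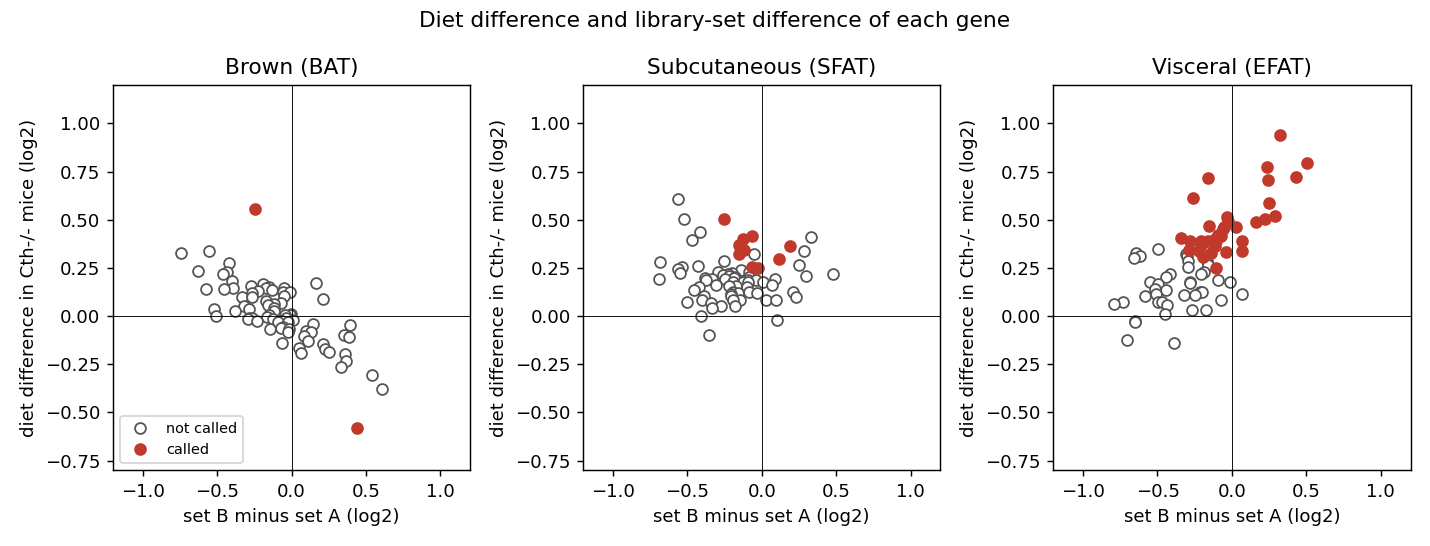
Log2 fold change of Cth-/- mice, cystine-free minus control diet, against the log2 difference between library sets B and A, one point per gene of the 77, filled where called, by depot. In EFAT the genes called higher lie towards the right, with a median set difference of -0.08 against -0.40 for those not called.

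The features of the genes were set beside the diet response in EFAT of Cth-/- mice. Of the 31 genes with a pyrimidine run such as those printed for Rps6 and Rpl35, 17 were called higher, with a median of 0.33. Of the 26 without a run, 10 were called (median 0.22), and of the 20 without a promoter entry, 8 (median 0.27). Genes without a cysteine codon were called in 8 of 15 cases (median 0.31) and the others in 27 of 62 (median 0.30). Of the 4 X-linked genes 1 was called, Rpl36a, and their median was 0.11. Across the 77 genes, Spearman's rho between fold change and transcript length was 0.02 in EFAT, -0.24 in SFAT and -0.28 in BAT, and between fold change and the set difference 0.68, 0.02 and -0.74. These correlations are over genes of the same libraries, whose fold change and set difference share their reads, and are given as descriptions.

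Of the other genes of the pathway, Fau, which encodes a ribosomal protein fused to a ubiquitin-like protein and falls outside the symbol rule, was higher on the cystine-free diet in EFAT (0.53) and in SFAT (0.28) of Cth-/- mice, and was not called in BAT. The counts of the lists that follow stand beside the shares of all genes tested, of which 14.5% rose and 14.3% fell in EFAT, 11.8% rose and 13.6% fell in SFAT, and 7.81% rose and 10.2% fell in BAT. Among 21 other mRNAs known for a TOP start, 11 rose (52.4%) and 1 fell in EFAT, 4 rose (19%) and 1 fell in SFAT, and 1 rose (4.76%) and 1 fell in BAT. In EFAT the share of rises among them was above that of all genes. In SFAT and BAT the shares rest on 4 and 1 genes and are not read as different from those of all genes. None of these differences was tested. The medians of the 21 mRNAs were 0.29, 0.24 and -0.03. The nucleolar chaperone Npm1 (0.84), the initiation factors Eif4b (0.76) and Eif3a (0.43) and Tpt1 (0.41) rose in EFAT, and Eif3l (0.48), Npm1 (0.41) and Naca (0.38) in SFAT. The histone chaperone Nap1l1 fell in all 3 depots, by 0.41 in EFAT, 0.67 in SFAT and 0.49 in BAT. Of the paralogs tested in EFAT (6 of 9 in the table), Rps27rt rose (0.98), and Rpl7l1 (-0.74) and Rps4l (-0.85) fell.

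Of 39 ribosome assembly factors, 6 rose (15.4%) and 3 fell (7.69%) in EFAT, 4 rose (10.3%) in SFAT and 4 rose (10.3%) in BAT, shares of rises close to those of all genes. Gnl3 (0.59) and Ncl (0.55), both nucleolar proteins, rose in EFAT, where Bysl (-0.80) and Bop1 (-0.67), which serve the small and the large subunit, fell. Rrs1 rose in SFAT (0.50), and Rrp12 (0.53) and Nolc1 (0.47) in BAT. Of 14 genes of RNA polymerase I and its factors, which transcribe ribosomal RNA, 2 rose in EFAT (Taf1d, 1.10, and Taf1a, 0.55), 1 in SFAT (Rrn3, 0.37) and 1 in BAT (Polr1a, 0.44), and none fell. These are 14.3%, 7.14% and 7.14% of the list, no more than the shares of all genes. Regulators of TOP mRNA translation and ribosome production changed in both directions. In EFAT 11 of 29 rose (37.9%), among them Myc (1.06), Ddit4 (1.05), an inhibitor of mTORC1, Mxi1 (0.79) and the lysosomal arginine sensor Slc38a9 (0.61), and 4 fell (13.8%), among them the mTOR inhibitor Deptor (-1.45) and Sesn3 (-0.48). In SFAT 7 rose (24.1%), with Mxd1 (0.52), Mtor (0.49) and the S6 kinase Rps6kb1 (0.41), and 2 fell (6.9%), Deptor (-0.82) and Sesn3 (-0.73). In BAT 3 of 28 rose (10.7%), Ddit4 (1.35), Sesn2 (1.04), a leucine sensor, and Mlst8 (0.40), and 2 fell (7.14%), Ddit4l (-2.58) and the translation repressor Eif4ebp1 (-0.61). These values are log2 fold changes. In Cth+/+ mice the diet called hardly any gene of all those tested in any depot. It called no gene of these lists either, which does not set the lists apart from other genes.

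**Figure D5:**
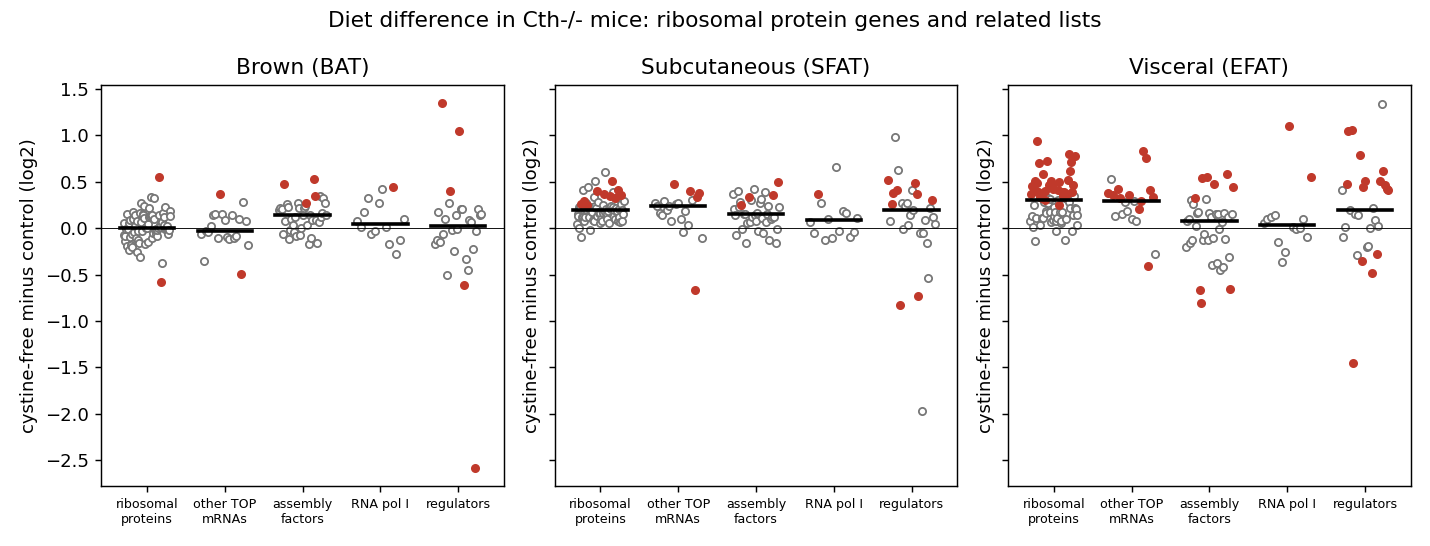
Log2 fold change of Cth-/- mice, cystine-free minus control diet, for the 77 ribosomal protein genes and the genes of 4 lists, by depot. Points are genes, called genes are filled, and the bars are medians, which for the 77 lie at 0.31 in EFAT, 0.19 in SFAT and 0.00 in BAT.

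Markers of several other cell types moved in the same libraries. Their counts are to be read beside the shares of all genes that rose and fell in each depot, given above for the other lists. In EFAT of the Cth-/- mice, cystine-free against control, 9 of 14 macrophage markers were lower and 1 higher, and their summed level went from 1291 to 1470 CPM on the control diet to 828 to 1086 CPM. Fibroblast and preadipocyte markers were lower in 8 and higher in 1 of 13, from 4550 to 5665 CPM down to 3045 to 3293 CPM. Markers of epididymal and mammary epithelium were higher in 2 of 7, with sums of 9.13 to 184 CPM and of 116 to 701 CPM. Adipocyte markers were lower in 2 of 7 (14662 to 19132 CPM and 13021 to 14985 CPM). B cell markers were lower in 1 of 12, but their sum went from 218 to 1009 CPM down to 46.5 to 58.9 CPM without overlap. The sums of muscle markers (2 of 10 lower, 41.3 to 100.3 CPM down to 20.0 to 24.0 CPM) and proliferation markers (2 of 10 lower, 42.2 to 99.7 CPM down to 13.3 to 41.7 CPM) did not overlap either. T cell markers were higher in 1 of 7 (5.79 to 23.6 CPM and 15.7 to 27.6 CPM), endothelial markers in 1 of 8 (976 to 1137 CPM and 1135 to 1358 CPM) and brown adipocyte markers in 2 of 8 (25.9 to 41.1 CPM up to 45.9 to 83.1 CPM). For T cell and endothelial markers the shares, 14.3% and 12.5%, were close to that of all genes called higher in EFAT. In SFAT fibroblast markers were lower in 12 of 13 (7303 to 18541 CPM down to 1992 to 2555 CPM). Macrophage markers were lower in 9 and higher in 1 of 14 (1273 to 3709 CPM and 765 to 1287 CPM). B cell markers were lower in 12 of 12 (162 to 699 CPM down to 43.3 to 108 CPM). Proliferation markers were lower in 6 of 10 (32.1 to 61.3 CPM down to 8.75 to 24.6 CPM), and brown adipocyte markers higher in 8 of 9 (208 to 405 CPM up to 391 to 2004 CPM). In BAT fibroblast markers were lower in 10 of 13 (592 to 760 CPM down to 228 to 268 CPM) and macrophage markers in 10 of 14 (89.6 to 131 CPM down to 61.5 to 73.2 CPM). Muscle markers were lower in 10 of 15 (121 to 863 CPM down to 22.0 to 143 CPM). Proliferation markers were lower in 5 of 8 (4.91 to 11.5 CPM down to 1.35 to 2.12 CPM), and brown adipocyte markers higher in 2 of 10 (3029 to 4771 CPM up to 6984 to 8436 CPM). Endothelial markers were called in 0 of 8 in SFAT and in BAT. In SFAT 0 of 13 muscle and 0 of 6 epithelial markers were called. Adipocyte markers were higher in 1 of 7 in SFAT, and higher in 1 and lower in 1 of 7 in BAT. T cell markers were lower in 3 of 10 in SFAT and in 1 of 4 in BAT, and B cell markers in 2 of 3 in BAT. Adam7 and Crisp1, which define epididymal epithelium, had 0 reads in the Cth-/- libraries of BAT and SFAT, and in EFAT every listed marker had reads. The part of these cell types in the levels of the 77 genes was not tested.

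Of the 77 genes, 36 were called in none of the 15 comparisons within a depot, among them Rplp0, Rpsa, Rpl3, Rps27a, Rps4x and Rpl10. The matching share of all genes is not given here, so the count cannot be read as high or low.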

How the data were processed

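The authors deposited unscaled expected counts, one value for each gene and library. The submitters' processing notes name RSEM, STAR, FastQC and Picard and the build mm10, and their versions are not stated in the labels. Expected counts depend on how RSEM shares reads between a gene and its near-identical copies: rows named as pseudogenes of the 77 genes held 2.75 to 4.23% of the reads of the genes and pseudogenes together. Fractional values, 5.31 to 8.16% in each library, were rounded for the tests.

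Tests used the edgeR 4.0.16 quasi-likelihood F-test with limma 3.58.1 in R 4.3.3, two-sided, with TMM scaling and the filterByExpr filter at a count of 10 and a total of 15, over the 16 libraries of a depot in 4 groups, or over all 48 in 12 groups between depots. Genes were called at a Benjamini-Hochberg adjusted p under 0.05 over all genes tested. CPM were computed from the same scaling. Alternatives were RLE scaling, no scaling factors, no filter, DESeq2 1.42.0, robust dispersion, only the compared groups, pseudogene reads added, the library set as a term or set A alone, each replicate left out, and a replicate block. Leaving out the doubted libraries was added after seeing the data. The steps were tested on simulated data.

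The 77 genes, the lists and the tests were chosen with earlier results of these data known. By rule, values are given by library for Rplp0, Rpsa, Rpl3, Rps6, Rpl22, Rps4x, Rps27a and Rpl10 and, for each comparison, the called genes that changed most, up to 6 in each direction, if their mean reached 5 CPM. Up to 4 called genes of a list were named, with a mean of at least 1 CPM. Some genes are not reported here by name, although this rule names them and all counts and medians include them. Other names were chosen after their values were seen. Coordinates and transcript features are from GENCODE M21 (GRCm38), with all 77 matched by identifier, and start windows from RefSeq. Protein sequences were not used here.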

Additional observations from a re-analysis of the deposited data

Results flagged for a closer look

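Each gene given by library and the summed level were tested in each of the 12 groups of 4 libraries, 108 tests in all. In 9 tests 1 library stood apart from the other 3 by more than Dixon's 95% critical value. Chance gives this in about 5% of independent tests. These tests reuse the same libraries and are not independent, so the rates cannot be compared. In BAT of Cth+/+ mice on the control diet replicate 2 was lowest, for Rpl3 (100.5 CPM) and Rpl10 (75.4 CPM). In EFAT of the same group replicate 3 was highest, for Rps4x (339 CPM) and Rpl10 (373 CPM). In cystine-deprived Cth+/+ mice EFAT replicate 7 was highest, for Rpl3 (371 CPM) and Rps4x (379 CPM). Replicate 16 was highest for Rpl10 (496 CPM) in EFAT of cystine-deprived Cth-/- mice, and SFAT replicate 20 of that genotype and diet was lowest for Rplp0 (267 CPM) and Rpsa (296 CPM). EFAT replicates 3 and 16 were each the single set A library of their group, and SFAT replicate 20 the single set B library.

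The diet response differed between genotypes by a called interaction. In SFAT the log2 differences were 0.63 for Rps2, 0.54 for Rps28, 0.54 for Rpl38, 0.51 for Rplp1 and 0.49 for Rps25. In EFAT they were 0.97 for Rps26, 0.79 for Rpl35, 0.77 for Rps6, 0.75 for Rpl23 and 0.66 for Rpl28, none of which was called with the library set as a term. Between depots the response of Cth-/- mice differed for Rpl14 in SFAT against BAT (0.44), and in EFAT against BAT for Rps26 (1.11), Rps24 (1.04), Rpl35 (0.96), Rpl23 (0.84) and Rps6 (0.75). The genes named for EFAT against BAT had a positive difference of set B minus set A in both depots, called in BAT only.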

How the results depend on the processing

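The number of the 77 genes called was recomputed under 407 alternatives, of which 287 stayed within 1.5 times the main count and 120 did not. Here and above, some counts under an alternative stand without the share of all genes called in that fit. Such counts cannot be read as high or low against all genes. The median log2 difference moved by more than the spread between libraries of a group in 6 of 300 alternatives. That spread was the SD, pooled within the groups compared, of each library's median log2 level of the 77. Of the single genes named, 1255 values kept direction and call, 258 lost the call, 9 gained it and 30 changed sign, all 30 of genes that were not called. Unless stated, the cause of a change was not tested.

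For the diet in Cth-/- mice, BAT gave 2 calls, 0 without scaling factors, 1 in set A alone and 1 without the doubted libraries. SFAT gave 10, and 0 without scaling factors, 3 with no low-count filter, 19 by DESeq2, 19 with the library set as a term, 17 in set A alone and 5 with only the compared groups. EFAT gave 35, and 16 with no filter, 58 with the library set as a term and 0 in set A alone, where 1 cystine-free library was left. For the genotype on the control diet, which gave 0, BAT had 1 with the library set as a term and 6 in set A alone, and SFAT 5 in set A alone. For the genotype on the cystine-free diet, BAT gave 5, and 1 without scaling factors and 1 with no filter. SFAT gave 14, and 0 without scaling factors, 3 with no filter, 26 in set A alone and 4 with only the compared groups. EFAT gave 25, and 8 with no filter, 0 in set A alone and 11 with only the compared groups. The interaction gave 0 in BAT and 1 with the set term. In SFAT it gave 8, and 0 without scaling factors, 1 with no filter, 18 with the library set as a term and 17 in set A alone. In EFAT it gave 9, and 5 with RLE scaling, 2 without scaling factors, 1 with no filter and 0 with the set term or in set A alone.

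Between depots, the response in SFAT minus BAT gave 1 call, 0 with RLE scaling, without scaling factors, with no filter, in set A alone and without the doubted libraries, and 3 by DESeq2 and also 3 with the set term. EFAT minus BAT gave 20, and 7 without scaling factors, 12 with no filter and 0 in set A alone. EFAT minus SFAT gave 0, and 1 by DESeq2 and without the doubted libraries. In Cth+/+ mice on the control diet, BAT minus SFAT gave 18 and, without scaling factors, 75 (73% of all genes). BAT minus EFAT gave 24, and 72 without scaling factors (77.2% of all genes) and 7 in set A alone. SFAT minus EFAT gave 7, and 0 without scaling factors, with no filter and in set A alone, and 11 by DESeq2.

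Leaving out 1 library at a time gave 1 to 2 calls for the diet in Cth-/- mice in BAT, 4 to 25 in SFAT and 23 to 38 in EFAT. It gave 1 to 6, 3 to 27 and 14 to 25 for the genotype under the cystine-free diet, and 0 to 1, 3 to 20 and 3 to 11 for the interaction. It gave 0 to 2 for SFAT minus BAT, 13 to 21 for EFAT minus BAT, 12 to 20 for BAT minus SFAT, 16 to 23 for BAT minus EFAT and 0 to 9 for SFAT minus EFAT, and 0 throughout for the other comparisons.

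Sign changes were all in genes that were not called for the diet in Cth-/- mice. In BAT Rps6 had 0.087 with the library set as a term, 0.30 in set A alone and 0.073 without the doubted libraries. In set A alone Rpl22 had 0.083 and Rps4x 0.032. With the library set as a term Rps27a had -0.056 and Rpl10 -0.053. In SFAT Rps4x had -0.028 and Rpl10 -0.044 with the library set as a term, and Rpl10 -0.0028 in set A alone. In EFAT Rpsa had -0.0083 with RLE scaling and -0.0082 by DESeq2. Leaving out 1 library at a time moved Rps6 from -0.16 to 0.078, Rpl22 from -0.14 to 0.0093, Rps4x from -0.074 to 0.11, Rps27a from -0.060 to 0.18 and Rpl10 from -0.042 to 0.19 in BAT. In SFAT it moved Rps4x from -0.031 to 0.20 and Rpl10 from -0.028 to 0.14. In EFAT it moved Rplp0 from -0.11 to 0.19, Rpsa from -0.16 to 0.12, Rps4x from -0.11 to 0.21 and Rpl10 from -0.17 to 0.16, each lowest without cystine-free replicate 16.

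Same-numbered libraries of different depots share a number, which the labels do not tie to an animal. The deviations of same-numbered libraries correlated at -0.15 to 0.58 (median 0.21, above 0.1 in 31 of 48 cases), against a median of -0.05 for other libraries. A library correlated best with its own number in 50 of 96 cases. This is a hint from the data that numbers may be shared, but they were to be taken as pairs only if every correlation was above 0.1, and were not. With a replicate block, the depot comparisons gave 1 call for SFAT minus BAT, 22 for EFAT minus BAT, 0 for EFAT minus SFAT, 21 for BAT minus SFAT, 29 for BAT minus EFAT and 10 for SFAT minus EFAT. Depth limits little: the lowest count of any of the 77 in a library was 201.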
